A study of Mus musculus with 864 samples.

Results

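The Hox genes are the 39 rows of the expression table named Hoxa, Hoxb, Hoxc or Hoxd followed by a number, out of 23281 genes after copies at several loci were summed. They were taken by name alone: 11 lie in the Hoxa cluster, 10 in Hoxb, 9 in Hoxc and 9 in Hoxd. No Hox gene had a second copy in the table. Hox genes encode homeodomain transcription factors that give body segments their identity along the head-to-tail axis. Within each of the 4 clusters they are numbered from the anterior to the posterior end, and genes with the same number in different clusters are called paralogues. In the spinal cord and its ganglia the middle numbers are known to mark trunk and limb levels, and the highest numbers mark the lumbosacral and tail end.

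The data are single-cell RNA sequencing of lumbar dorsal root ganglia, which hold the cell bodies of sensory neurons of the hind part of the trunk and hindlimb. Ganglia of levels L4 to L6, 6 in number, were taken from C57/Bl6 mice of 6 to 8 weeks, with no transgene or treatment named in the labels. Cells were dissociated with enzymes and drawn singly into wells with a glass capillary under the microscope, and template switching put a well barcode at the start of each transcript. The wells fall into 5 preparations, which serve as replicates: session A males, session A females and session B males, picked at room temperature, and session C males and session C females, picked on a cooled stage. The labels name no animal, so no p-value measures the spread between animals. The preparations are not fully independent. Session A males and females share a session and, in part, a plate of wells, and session C males and females share a session. In class comparisons, p-values measure how far the differences between classes vary from preparation to preparation. In the comparison of temperatures they measure the spread between the 5 preparations, and temperature cannot be told apart from session C. Of 799 single-cell wells, 694 held 1000 or more genes, the fewest in session A females (45) and session C females (75). In the order of preparations just given, which is kept below, median reads per well were 15421, 15597, 198656, 1526078 and 2573228, so the sessions differ strongly in depth. Values are RPM, the reads of a gene per 1000000 reads of the well, and read counts include copies made by amplification.

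Cell types were rebuilt here: wells were clustered without the Hox genes and named from marker lists. This gave NF-like wells (neurofilament-rich neurons of the large, myelinated kind), 49, 12, 32, 20 and 6 of them in the 5 preparations, 140 NP-like (non-peptidergic), 59 PEP-like (peptidergic), 247 TH-like (tyrosine hydroxylase) and 42 non-neuronal wells, while 87 wells were left out because the 2 clusterings disagreed or gave no name. The wells left out were not spread evenly over cell types. A cluster led by Sst and Nppb was named PEP-like in 1 clustering (46 wells) and NP-like in the other (35 wells). Clusters of 26 and 24 wells had no name in 1 clustering. Summed levels of 12 neurofilament-class markers averaged 17538 RPM in NF-like wells and 1641 to 2553 RPM in the other neuron classes. Clusters were named from these same lists, so a high sum of a class in its own list follows from the naming. The non-neuronal wells came from sessions B and C only, were named from fibroblast markers and were mixed: 8 fibroblast markers summed to 16563 RPM and 8 satellite glia markers to 17411 RPM. General neuron markers were not absent from them, at 4380 RPM against 24147 to 36092 RPM in the neuron classes.

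The promoters of 3 genes are shown because the results turn on them: Hoxa7, present in the largest share of wells, Hoxd1, high in NF-like neurons, and Hoxa13, a posterior gene seen in 3 wells. Each run is the 250 bases before the RefSeq transcription start in build GRCm38.p6, printed 5′ to 3′ on the gene's own strand, with CG dinucleotides in capitals. The Hoxa7 run lies at chr6:52218574-52218823 on the minus strand, the Hoxd1 run at chr2:74762730-74762979 on the plus strand and the Hoxa13 run at chr6:52260881-52261130 on the minus strand.
Hoxa7: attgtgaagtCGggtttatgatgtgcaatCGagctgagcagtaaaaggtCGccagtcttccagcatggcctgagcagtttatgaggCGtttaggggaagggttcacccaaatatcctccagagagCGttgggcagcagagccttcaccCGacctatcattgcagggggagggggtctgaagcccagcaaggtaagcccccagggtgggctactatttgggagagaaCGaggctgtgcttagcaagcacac
Hoxd1: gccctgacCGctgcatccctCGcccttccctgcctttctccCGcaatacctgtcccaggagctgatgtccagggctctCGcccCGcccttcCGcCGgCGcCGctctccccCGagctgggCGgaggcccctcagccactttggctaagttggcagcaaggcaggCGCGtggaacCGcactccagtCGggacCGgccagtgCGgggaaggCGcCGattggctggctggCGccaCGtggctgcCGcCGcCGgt
Hoxa13: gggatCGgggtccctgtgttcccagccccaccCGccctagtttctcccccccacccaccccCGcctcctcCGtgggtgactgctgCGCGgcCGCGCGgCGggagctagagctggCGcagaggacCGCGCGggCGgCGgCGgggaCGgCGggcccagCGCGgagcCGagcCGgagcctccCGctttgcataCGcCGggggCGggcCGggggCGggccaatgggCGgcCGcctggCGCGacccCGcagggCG
The 3 runs hold 7, 24 and 35 CG dinucleotides. RefSeq promoters were held for 22 of the 39 Hox genes, 24 promoters in all; their median was 12.5 CG dinucleotides, against 6 over all 32851 promoters of this length. Hox proteins bind DNA together with Pbx cofactors, and TGATNNAT, a form of their joint site, was searched on both strands. It was found in 4 of the 24 Hox promoters (16.7%) and in 7.68% of all promoters. None of the 3 runs printed here holds it. A match describes the letters only.

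Hox genes of the middle paralogue numbers were seen in most neurons and the posterior ones hardly at all. At least 1 Hox gene had a read in 613 of 694 wells (88.3%, exact Clopper-Pearson interval 85.7 to 90.6%), and the median well held 3. Of the 39 genes, 12 were seen in 10% or more of wells, 16 in 1 to 10% and 11 in under 1%. The 12, from the highest share down, were Hoxa7, Hoxb5, Hoxa10, Hoxa9, Hoxb7, Hoxd1, Hoxd8, Hoxc9, Hoxd9, Hoxb9, Hoxc10 and Hoxb6. All but Hoxd1 have paralogue numbers 5 to 10. These 18 middle genes carried a mean of 88.5% of all Hox RPM, with a range of 82.1 to 91.5% over preparations. The reads come from transcript starts and RPM has no length term, so this is a share of tagged transcript ends.

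**Figure D1:**
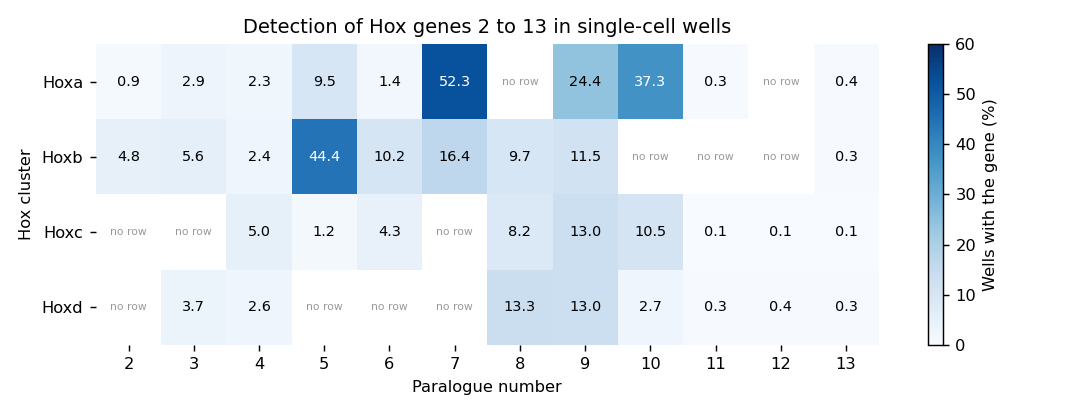
Share of the 694 single-cell wells with at least 1 read of each Hox gene numbered 2 to 13, by Hox cluster (rows) and paralogue number (columns); the colour scale is in percent and "no row" marks positions with no gene in the table. The darkest cells are Hoxa7 (52.3%), Hoxb5 (44.4%) and Hoxa10 (37.3%), and every gene numbered 11 to 13 is below 1%.

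Hoxa7, a middle gene of the a cluster known for patterning thoracic vertebrae, was the Hox gene seen in the largest share of wells. It had reads in 363 of 694 wells (52.3%, interval 48.5 to 56.1%). Its mean level over all wells was 124.6, 64.2, 163.9, 48.0 and 96.6 RPM in the 5 preparations. The room-temperature and cooled sessions overlapped. Hoxb5, which sits at the anterior edge of the middle group, followed with 308 wells (44.4%) and 40.7, 103.97, 47.8, 88.7 and 120.4 RPM. Hoxa10, a lumbar-level gene needed for rib-free vertebrae together with its paralogues, was seen in 259 wells (37.3%) at 42.6, 15.5, 25.1, 43.04 and 29.8 RPM. Hoxa9 was seen in 24.4% of wells at 13.2, 11.8, 15.5, 25.96 and 5.75 RPM. In the wells where they were seen, the median count was 12 reads for Hoxa7, 11 for Hoxb5 and 9 for Hoxa10, so most detections were not single reads. Over all Hox genes, 23.98% of the 2335 detections were single reads.

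The next genes had lower shares. Hoxb7 was seen in 16.4% of wells, with 12.5, 17.2, 20.7, 6.24 and 1.99 RPM. Hoxd1, the most anterior gene of the d cluster, known from work on developing pain-sensing neurons, was seen in 16.1% of wells, with 14.9, 7.99, 14.1, 4.99 and 0.400 RPM. Both had their lowest value in session C females, which held only 6 NF-like wells. Hoxb9 was seen in 80 wells (11.5%) at 12.1, 14.0, 8.43, 25.99 and 6.34 RPM; a single well at 3846 RPM carried 38.6% of its summed RPM. In the c cluster, whose genes are known for setting motor neuron columns, Hoxc9 was seen in 90 wells (12.97%) at 3.84, 5.52, 3.82, 10.4 and 12.2 RPM. Hoxc10, the lumbar member, was seen in 73 wells (10.5%) at 8.54, 10.4, 9.94, 8.66 and 8.04 RPM, and Hoxc8 in 57 wells (8.21%) at 6.49, 7.70, 11.4, 6.53 and 7.42 RPM. Hoxd8 was seen in 92 wells (13.3%) at 5.57, 5.67, 7.31, 7.47 and 5.93 RPM. The mean levels of Hoxc10 and Hoxd8 varied little over the preparations, with an SD of 0.999 RPM for Hoxc10 and 0.922 RPM for Hoxd8 (n = 5). Their shares of wells varied more, from 6.67 to 14.7% for Hoxc10 and from 4.44 to 17.9% for Hoxd8.

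The other genes that averaged at least 5 RPM were Hoxa5, Hoxa3, Hoxb2 and Hoxc4, and single wells carried most of the first pair. Hoxa5, which patterns the neck and the lung, was seen in 66 wells at 6.12, 11.2, 3.26, 17.8 and 188.1 RPM. One well of session C females at 11015 RPM held 55.7% of its summed RPM, and the next highest well stood at 1351 RPM. Hoxa3, a gene of the neck and throat region in the same cluster, was seen in 20 wells at 1.78, 0, 2.47, 2.37 and 83.9 RPM, and a single well at 6294 RPM held 83.4% of the sum. Both of these wells were among the non-neuronal ones. The Hoxa3 gene model of RefSeq spans its neighbours Hoxa4 to Hoxa6, and how the authors' counting split shared reads is not given in the sources used here, so these values are uncertain. Hoxb2, a hindbrain gene, was seen in 33 wells at 2.94, 1.83, 1.52, 3.57 and 17.65 RPM, and Hoxc4 in 35 wells at 2.95, 0.542, 11.8, 10.2 and 6.51 RPM.

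Further genes with a share of 1% or more were Hoxd9 (90 wells, 4.99 RPM), Hoxb6 (71, 4.58 RPM), Hoxb8 (67, 3.71 RPM), Hoxb3 (39, 2.98 RPM), Hoxc6 (30, 2.99 RPM), Hoxd3 (26, 1.38 RPM), Hoxd10 (19, 3.12 RPM), Hoxd4 (18, 1.29 RPM), Hoxb4 (17, 0.7998 RPM), Hoxa4 (16, 2.39 RPM), Hoxa6 (10, 0.241 RPM) and Hoxc5 (8, 0.513 RPM), each with its mean over the 5 preparations. Hoxa2, known for the second pharyngeal arch, was seen in 6 wells and Hoxb1, a hindbrain gene, in 2.

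The 9 genes numbered 11 to 13 were each seen in 1 to 3 of 694 wells. Hoxa13 and Hoxd12 were seen in 3 wells; Hoxa11, Hoxb13, Hoxd11 and Hoxd13 in 2; Hoxc11, Hoxc12 and Hoxc13 in 1. Together they reached 16 wells (2.31%, interval 1.32 to 3.72%) and 0 to 0.268% of Hox RPM. Of the 39 genes, 19 were seen in every preparation, and none of these 9 was. In the a cluster detection stepped from 259 wells for Hoxa10 to 2 for its neighbour Hoxa11. In the c cluster the same step ran from 73 wells for Hoxc10 to 1 for Hoxc11. In the d cluster Hoxd10 was already low, with 19 wells against 90 for Hoxd9. Hox11 and Hox13 paralogues are known for sacral, tail and distal limb levels.

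By cluster, 1 or more Hoxa genes were seen in 509 wells (73.3%), Hoxb genes in 428 (61.7%), Hoxd genes in 256 (36.9%) and Hoxc genes in 220 (31.7%). With every well thinned to 5000 reads, which left out 24 of the 694, the shares were 39.7, 30.4, 9.85 and 10.4%. The a and b clusters kept the first places, while Hoxc and Hoxd changed order. The mean summed level was 212.9 ± 114.9 RPM for Hoxa, 122.98 ± 27.5 for Hoxb, 34.2 ± 9.21 for Hoxc and 25.9 ± 7.95 for Hoxd (SD, n = 5).

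Of the 32 empty and medium-only wells, 10 held a Hox read, in 12 detections of 9 genes with at most 11 reads each. Hoxa10, Hoxb5 and Hoxb7 were seen in 2 control wells, and Hoxa7, Hoxb3, Hoxb6, Hoxc9, Hoxd8 and Hoxd9 in 1. None of the genes numbered 11 to 13 was seen in a control well. As they reached only 2.31% of single-cell wells together, 32 control wells are too few to compare the rates.

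NF-like neurons differed from the other neurons in several Hox genes. Hoxb7, Hoxb9 and Hoxd1 were higher and Hoxb5 was lower. The test was limma on log2(mean RPM + 5) of each class in each preparation, with preparation as a term and Benjamini-Hochberg adjustment over the 10419 genes whose mean over these class values was at least 5 RPM. Of the Hox genes, 16 passed that level and 23 did not. This mean is not the mean over all wells given above: Hoxb2 did not pass by it, and Hoxd9 and Hoxd10 did. Among all genes, 4.62% were called higher and 2.83% lower in NF-like wells. Of the 16 Hox genes, 3 were called higher (18.8%) and 1 lower (6.25%). The mean that sets the level includes the NF-like values, so a gene high mainly there can pass through them. Hoxd1 averaged 25.7 RPM in NF-like wells, against 1.58 in NP-like, 8.59 in PEP-like and 1.31 in TH-like wells. Hoxb7 averaged 26.96 RPM, against 1.67, 2.66 and 11.6 in the same order. Hoxb9 averaged 47.8 RPM in NF-like and 72.6 RPM in PEP-like wells. The part of this level in the share of 18.8% was not tested. The median difference of the 16 was 0.03 on the log2 scale, as was that of all genes.

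Hoxb7 in NF-like wells stood at 30.3, 26.1, 17.9, 35.7 and 24.9 RPM in the 5 preparations. In TH-like wells it stood at 15.6, 6.21, 31.2, 5.13 and 0.00869 RPM. In NP-like wells it was 0 in 3 preparations, 0.4926 RPM in session C males and 7.88 RPM in session B males. NF-like wells were above each other neuron class in 4 of 5 preparations; in session B males TH-like wells were higher. The difference was 1.96 ± 0.38 on the log2 scale (SE), or 3.88-fold on the RPM + 5 scale, with an adjusted p of 0.0017. It was 3.28 with a pseudocount of 1 RPM, and 5.59 by edgeR on recovered reads, where the call was lost (adjusted p 0.0679). Hoxb7 was seen in 54 NF-like wells (45.4%, interval 36.2 to 54.8%), 32 of 247 TH-like (12.96%), 2 of 59 PEP-like (3.39%) and 2 of 140 NP-like (1.43%).

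Hoxb9, which marks lower thoracic and more posterior levels, stood at 40.6, 48.3, 24.9, 45.97 and 78.9 RPM in NF-like wells. It was 0 to 0.991 RPM in TH-like wells and 0 to 0.0442 RPM in NP-like wells, with no overlap. In PEP-like wells it was 9.60, 5.98, 275 and 0 RPM in the 4 preparations with 3 or more such wells, and the single well at 3846 RPM accounts for 92.2% of the PEP-like sum. The difference was 2.58 ± 0.61 (SE), or 5.99-fold, with an adjusted p of 0.00957. It was 4.20 with a pseudocount of 1 RPM and 7.99 by edgeR, called in both. Without the highest well of each Hox gene, an alternative chosen after seeing the data, it was 3.07 with an adjusted p of 2.61e-05. Without session A males, session A females or session C females the adjusted p was 0.0724, 0.0523 and 0.0700, and the call was lost.

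Hoxd1 stood at 38.9, 23.03, 31.6, 30.0 and 5.00 RPM in NF-like wells, above every other neuron class in all 5 preparations. NP-like wells ranged from 0 to 3.67 RPM, TH-like from 0 to 4.95 RPM and PEP-like from 0 to 19.6 RPM. The difference was 1.88 ± 0.37 (SE), or 3.69-fold, with an adjusted p of 0.00202. It was 3.14 with a pseudocount of 1 RPM and 6.03 by edgeR, called in both. The gene was seen in 52 NF-like wells (43.7%), and in 10.2% of PEP-like, 7.86% of NP-like and 7.69% of TH-like wells.

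Hoxb5 went the other way. It stood at 26.5, 1.72, 32.2, 28.2 and 6.65 RPM in NF-like wells, at 28.4, 317, 62.5, 73.4 and 176.7 RPM in NP-like wells and at 57.8, 32.1, 73.9, 163.3 and 171.96 RPM in TH-like wells. In PEP-like wells it stood at 47.3, 31.3, 25.9 and 73.97 RPM in the preparations other than session A females. NF-like wells were below the mean of the other classes in 5 of 5 preparations, but not below PEP-like wells in session B males and session C males. The difference was -1.88 ± 0.52 (SE), or 3.68-fold lower, with an adjusted p of 0.0267. The call was lost without session A females, session C males or session C females (adjusted p 0.0884, 0.0554 and 0.172), at Leiden resolution 1 (0.108) and with edgeR (0.454). The share of wells was 41.2% in NF-like, 51.4% in NP-like, 52.6% in TH-like and 30.5% in PEP-like wells.

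Depth and the number of genes per well move with the NF-like class. NF-like wells held a median of 5453 genes, against 3558 in NP-like, 3402 in TH-like and 2263 in PEP-like wells. Median reads were 81372, 112850, 223874 and 71425, but these pool sessions of very different depth. Reads were also divided by the median of the well's own preparation. In the finer clusters described below, the median ratio was 1.68 to 3.39 for NF-like and 0.987 to 2.17 for NP-like clusters. It was 0.634 to 1.16 for TH-like and 0.344 to 1.11 for PEP-like clusters, so NF-like wells were mostly the deeper ones within preparations. In wells thinned to 5000 reads, the NF-like share was 10.4% for Hoxb7, 14.8% for Hoxb9 and 12.2% for Hoxd1, against at most 4.60, 3.85 and 2.17% in the other neuron classes. In the fit on thinned wells Hoxb9 was called (2.79, adjusted p 0.00456), while Hoxb7 (1.28, adjusted p 0.235) and Hoxd1 (1.5, adjusted p 0.0956) kept their sign and were not called.

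Hoxb6 and Hoxb8, which lie beside the called Hoxb genes on the chromosome, were below the level needed for the test. Hoxb8, known for grooming and pain phenotypes in mutant mice, stood at 13.4, 2.70, 11.1, 3.67 and 46.6 RPM in NF-like wells and at 0 to 4.04 RPM in the other neuron classes. Hoxb6 stood at 19.6, 3.498, 21.4, 17.8 and 4.54 RPM in NF-like wells and at 0 to 8.46 RPM in the others. The NF-like value of each exceeded that of every other neuron class in 5 of 5 preparations. When genes averaging at least 1 RPM were tested, 24 Hox genes entered. Limma then called Hoxb8 (1.57, adjusted p 0.00232) and Hoxb6 (1.45, adjusted p 0.00303), where 4.66% of 13098 genes were called higher. The mean that sets this level, too, includes the NF-like values. A total of 95 NF-like wells (79.8%) held 1 or more of Hoxb6 to Hoxb9 and 53 held at least a pair of them, against 9 of 140 NP-like wells (6.43%), 10 of 59 PEP-like (16.9%) and 50 of 247 TH-like (20.2%). These 4 genes neighbour each other, and RefSeq's Hoxb5os, an antisense model, overlaps Hoxb5 and Hoxb6.

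**Figure D2:**
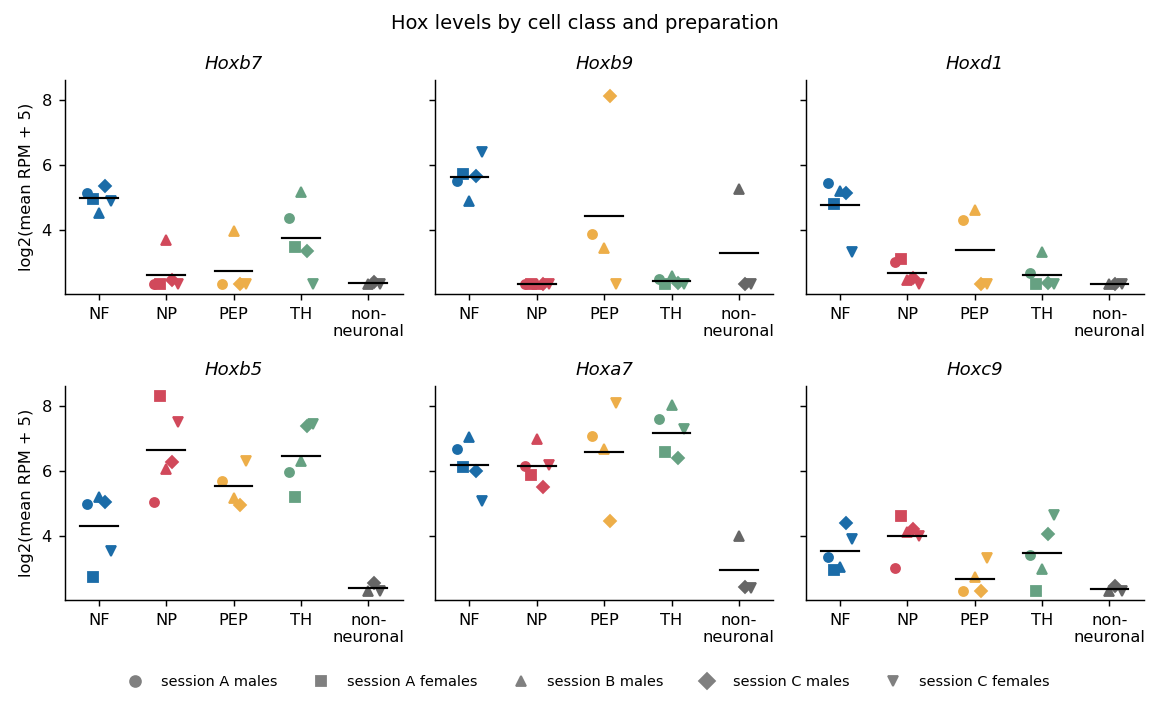
Mean level of the 6 Hox genes called in any comparison, as log2(mean RPM + 5), in each cell class; each symbol is 1 preparation and the line is the mean over preparations. Within a preparation Hoxb7, Hoxb9 and Hoxd1 sit highest in NF-like wells, except for Hoxb9 in PEP-like wells of session C males (275 RPM) and in non-neuronal wells of session B males (33.6 RPM, against 24.9 RPM in NF-like wells), and for Hoxb7 in TH-like wells of session B males; Hoxa7 and Hoxb5 sit lowest in the non-neuronal wells.

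Hoxa7, Hoxa9, Hoxa10 and Hoxd9 were not called in any comparison among neurons. Hoxa7 was seen in 73.1% of NF-like, 55.5% of TH-like, 49.3% of NP-like and 30.5% of PEP-like wells; its levels overlapped, at 75.7 ± 38.3 RPM in NF-like, 154.5 ± 73.4 in TH-like, 70.5 ± 31.3 in NP-like and 129.4 ± 106.2 RPM in PEP-like wells (SD over preparations). Hoxa10 was seen in 61.3, 34.8, 32.1 and 23.7% of the same classes, at 7.82 to 36.2 RPM in NF-like and 19.4 to 71.5 RPM in TH-like wells. In thinned wells the Hoxa10 shares were 13.9% in NF-like, 14.2% in TH-like, 12.3% in NP-like and 5.77% in PEP-like wells, so at equal depth the NF-like share was no longer above the TH-like one and was still above that of PEP-like wells. Hoxa9 was seen in 44.5% of NF-like wells and in 13.6 to 22.7% of the other neuron classes; after thinning, 8.70% against 4.35 to 7.69%. Hoxd9 was seen in 32.8% of NF-like wells and in 7.29 to 10.2% of the other neuron classes; after thinning, 3.48% against 0.725 to 3.85%. Hoxc8, a brachial and thoracic gene, was highest in PEP-like wells, at 32.02, 28.7, 28.5 and 0 RPM, against 4.26 to 7.91 RPM in TH-like wells. That difference was 1.41 on the log2 scale and was not called (adjusted p 0.101 by limma). Without session C females, which held 3 PEP-like wells, it was called.

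No Hox gene was called in NP-like, PEP-like or TH-like wells against the other neurons by limma, where 5.34, 2.06 and 4.46% of all genes were called. At an unadjusted p under 0.05 there were 6, 3 and 3 of the 16 Hox genes, against 15.3, 14.6 and 13.8% of all genes, and edgeR called 0 in each. The median difference of the 16 Hox genes was -0.44 in NP-like, -0.04 in PEP-like and 0.19 in TH-like wells, against -0.01, -0.17 and 0.08 over all genes.

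**Figure D3:**
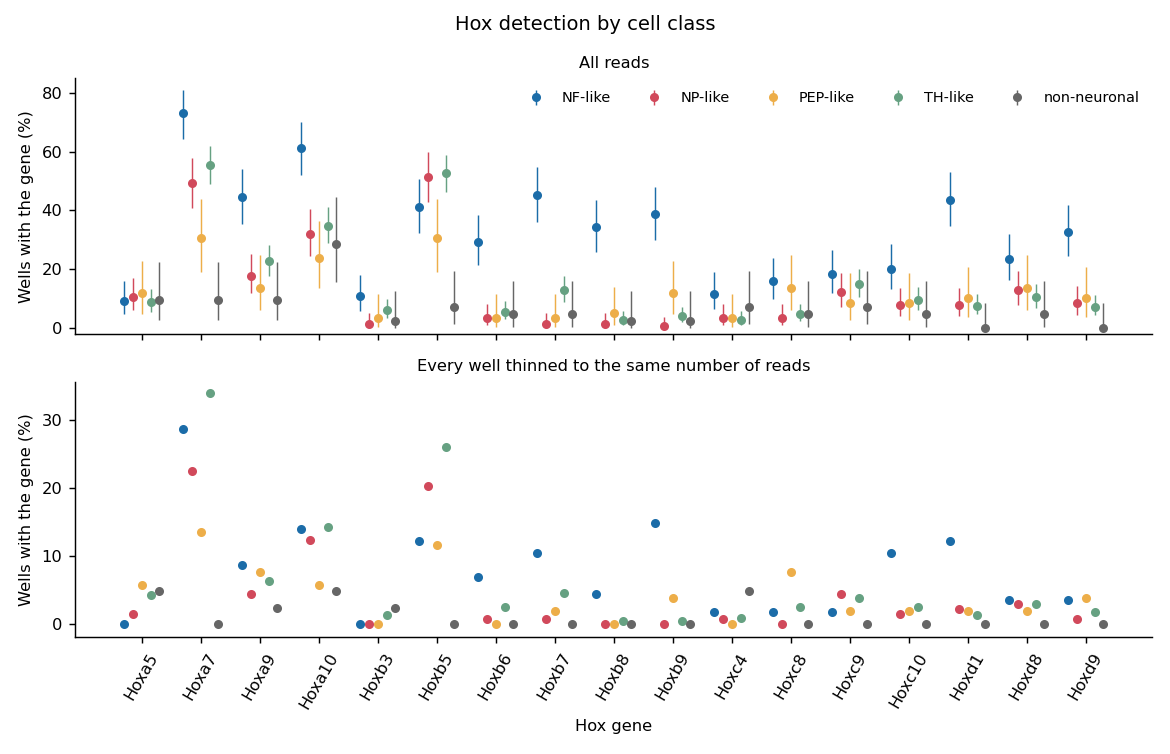
Share of wells with each Hox gene seen in 5% or more of wells, by cell class, with all reads (upper panel, bars are exact 95% intervals) and with every well thinned to 5000 reads (lower panel). With all reads NF-like wells stand apart from the other neurons in Hoxb6 to Hoxb9 and Hoxd1. In the lower panel, which has no intervals and rests on few detections, they stay highest among neurons for Hoxb7, Hoxb9 and Hoxd1. The fit on thinned wells called Hoxb9 but not Hoxb7 or Hoxd1.

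Finer clusters of wells, from the first of the 2 gene sets clustered, split the NF-like pattern. All of these are descriptions, with no test. In a Pvalb-led cluster of 47 wells (Pvalb marks proprioceptive neurons) Hoxb5 was seen in 10.6% and Hoxd1 in 12.8% of wells. In a Pcp4l1-led cluster of 54 wells both were seen in 66.7%. In another NF-like cluster of 21 wells, led by LOC433944 and with a mean of 865 RPM of Htr3a, Hoxd1 was seen in 61.9% and Hoxb5 in 38.1%. In thinned wells the shares of Hoxd1 were 2.27% in the Pvalb-led and 20.8% in the Pcp4l1-led cluster. By preparation its levels overlapped, at 0 to 27.1 RPM in the Pvalb-led and 10.01 to 61.1 RPM in the Pcp4l1-led cluster. Hoxb9 and Hoxc10 had their highest NF-like levels in the Pvalb-led cluster. Hoxb9 stood at 80.3 ± 39.9 RPM in the Pvalb-led cluster, 30.8 ± 23.7 in the Pcp4l1-led and 4.49 ± 8.99 in the LOC433944-led cluster (SD, n = 4 preparations). Hoxc10 stood at 35.6 ± 35.04, 3.81 ± 3.21 and 9.12 ± 17.3 RPM. An unnamed cluster of 24 wells led by Slc25a35 shared much of the pattern, with Hoxb7 in 58.3%, Hoxd1 in 45.8% and Hoxb9 in 37.5% of wells. In that cluster 9 of the 12 neurofilament-class markers were raised. It was left unnamed because its leading genes held a marker of the peptidergic list, Accn3, and none of the neurofilament-class list.

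**Figure D4:**
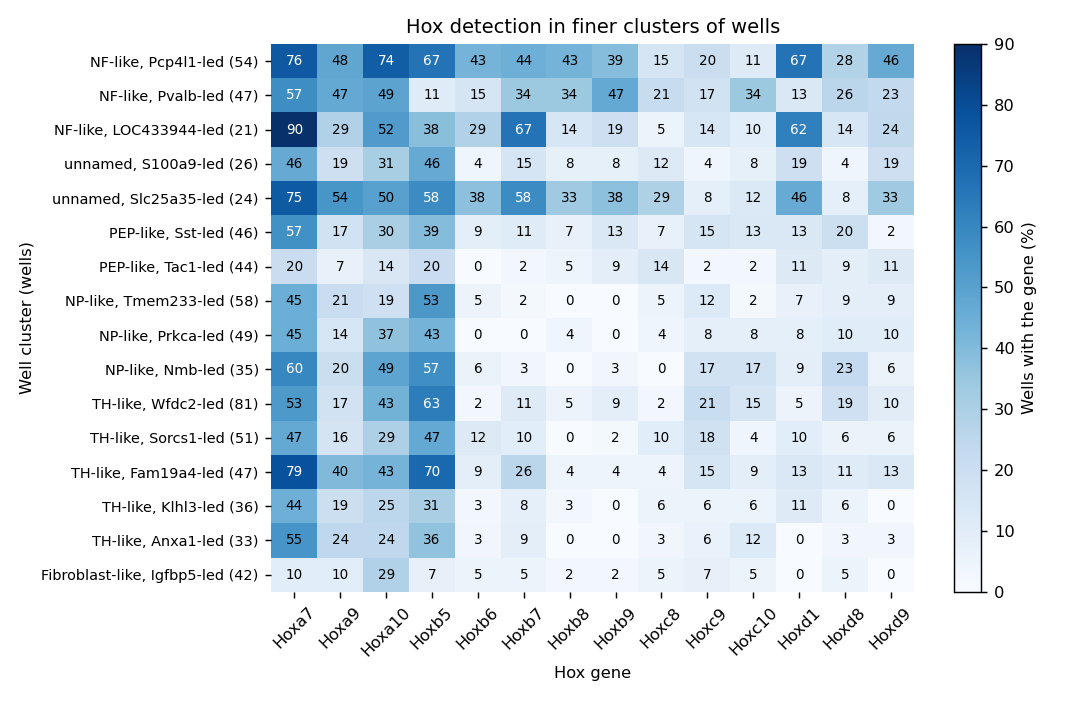
Share of wells (percent, colour and number) with each of 14 Hox genes in the 16 finer clusters, with each cluster's class name, leading gene and number of wells. The NF-like rows and the unnamed Slc25a35-led row carry Hoxb6 to Hoxb9 and Hoxd1; the Pvalb-led row is low in Hoxb5 (10.6%) and Hoxd1 (12.8%).

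In non-neuronal wells most Hox genes were seen in few wells, and Hoxa10 in more. Hoxa7 stood at 11.1, 0.350 and 0.274 RPM in sessions B males, C males and C females, against 17.1 RPM or more in every neuron class and preparation, with no overlap. The difference from the neurons was -3.55 on the log2 scale, with a limma adjusted p of 7.39e-06. Hoxb5 stood at 0, 0.851 and 0 RPM, a difference of -3.54 (adjusted p 0.000125). Hoxc9 (-1.28, adjusted p 0.0228) and Hoxb7 (-1.21, adjusted p 0.0366) were also called lower, from levels of at most 0.568 RPM in each non-neuronal preparation. With a pseudocount of 1 RPM these differences were -4.94 for Hoxa7, -5.50 for Hoxb5, -2.70 for Hoxc9 and -2.29 for Hoxb7. By edgeR they were -4.78, -6.01, -4.98 and -3.95 in the same order. The median difference of all genes was -1.09 and 43.2% of all genes were called lower, against 4 of 16 Hox genes (25%), so the share of Hox genes called was below the background. Hoxc9 and Hoxb7 lay close to that median. Non-neuronal wells held a median of 1472 genes, against 2263 to 5453 in the neuron classes, and the part of this in the result was not tested. By edgeR, Hoxa7 and Hoxb5 were called lower, Hoxb7 and Hoxc9 were not, and Hoxa3 and Hoxc4 were called higher; 1 well held all of the non-neuronal Hoxa3 RPM.

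Hoxa10 was seen in 12 of 42 non-neuronal wells (28.6%, interval 15.7 to 44.6%), at 8.73, 1.37 and 52.2 RPM, and was not called (-0.90, adjusted p 0.256). Hoxd1 and Hoxd9 were seen in 0 of 42, which allows a share of up to 7.14%. After thinning, Hoxa7 was seen in 0 of 42 non-neuronal wells and Hoxa10 in 4.76%.

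The number of Hox genes per well followed the same order of classes. The median was 6 in NF-like, 2 in NP-like, PEP-like and TH-like and 1 in non-neuronal wells. Of the NF-like wells 2 (1.68%) held none, against 8.10% of TH-like, 14.3% of NP-like, 20.3% of PEP-like and 35.7% of non-neuronal wells. After thinning, the mean was 1.42 in NF-like, 1.18 in TH-like, 0.826 in NP-like, 0.731 in PEP-like and 0.238 in non-neuronal wells. The NF-like lead over TH-like wells was thus smaller at equal depth: by preparation the thinned means ran from 0.600 to 1.58 in NF-like and 1.03 to 1.36 in TH-like wells and overlapped.

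**Figure D5:**
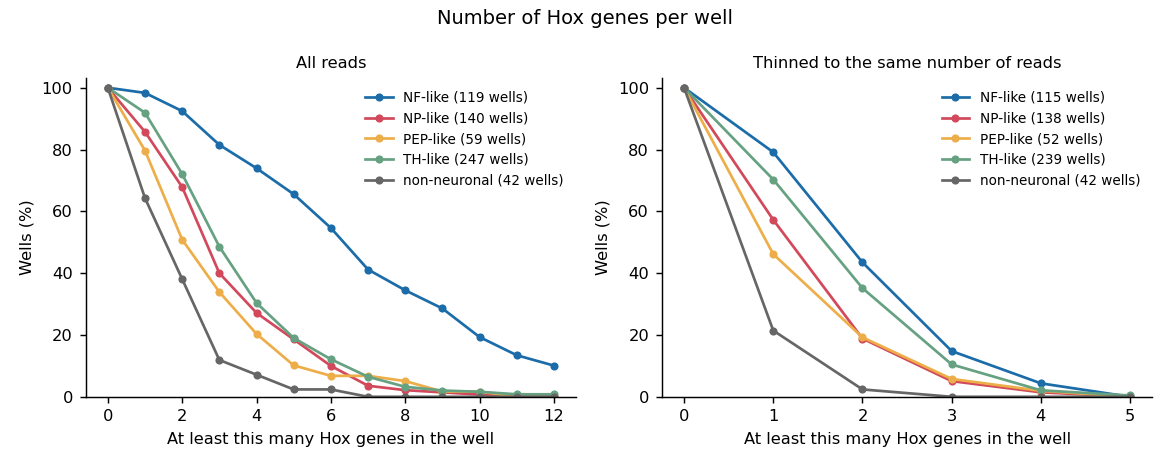
Share of wells (percent) that hold at least the number of Hox genes on the x axis, by cell class, with all reads (left) and after thinning to 5000 reads (right). The NF-like curve lies highest on the left from 1 gene on (median 6 genes), and the non-neuronal curve is lowest or level with the lowest in both panels.

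Across sessions, the mean number of Hox genes per well was 2.73, 2.13, 4.82, 3.29 and 2.68 with all reads, in the usual order of preparations. After thinning it was 1.19, 1.00, 1.02, 0.896 and 0.919, and session B's high value was not seen at equal depth. Session C had more reads per well than session B and fewer Hox genes with all reads. The part of depth in these values was not tested. Males had more than females with all reads in both sessions that held both sexes, and the thinned values of session C were 0.896 in males and 0.919 in females. The comparison of cooled with room-temperature neurons used 1 value per preparation, averaged over the TH-like, NP-like and NF-like classes, with sex as a term and 2 residual degrees of freedom. No Hox gene of 14 tested was called by limma, against 1.36% of 9686 genes. At an unadjusted p under 0.05 there were 2, against 17.9% of all genes: Hoxb2, at 1.16 on the log2 scale (adjusted p 0.172), and Hoxc9, at 0.90 (adjusted p 0.201). The edgeR test called 0 of the Hox genes. The median of the 14 was 0.21 and that of all genes 0.11.

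Genes that act with Hox proteins were read from lists chosen by function. Each was classed by the clustering that left it out, so its wells are not exactly those used for Hox genes. Of 9 TALE cofactors, the Pbx, Meis and Pknox proteins that bind DNA beside Hox proteins, 7 were tested and 2 were higher in NF-like neurons, where 4.62% of all genes were. Meis2 averaged 25.8 ± 17.8 RPM in NF-like wells and 0.264 to 7.78 RPM in the other neuron classes, a difference of 1.90 (limma adjusted p 0.00427). The median of the 7 was 0.11, against 0.03 for all genes. The mean that sets the level for testing includes the NF-like values here too. In non-neuronal wells 2 of the 7 were lower, Pknox2 (-2.23, limma adjusted p 0.00039) and Pbx4 (-1.36, adjusted p 0.0254), and 1 was higher. Among all genes 43.2% were called lower and 8.76% higher there. The median of the 7 in these wells was -0.91, against -1.09 for all genes.

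Polycomb proteins keep Hox genes silent outside their domains, and Trithorax proteins keep them active. Of 26 Polycomb genes 19 were tested, and none was called in NF-like or TH-like wells by limma. By limma Ezh1, an H3K27 methyltransferase of non-dividing cells, was higher in NP-like wells (1.36, adjusted p 0.0397) and lower in PEP-like wells (-2.13, adjusted p 0.00824). Cbx6 was lower in NP-like wells (-1.44, adjusted p 0.0461). A Sst-led cluster was named PEP-like in 1 clustering and NP-like in the other, and the part of this in these calls was not tested. In non-neuronal wells 9 of 19 were lower, a share near the 43.2% of all genes called lower, with a median of -1.31 against -1.09 for all genes; the largest differences were those of Ezh1 (-3.21) and Phf1 (-2.74). Of 14 Trithorax and demethylase names 12 were measured and tested, with none called in the neuron comparisons; in non-neuronal wells Ash1l was higher (2.68), as were 8.76% of all genes, and Men1 (-2.55) and Rbbp5 (-2.002) were lower. Of 9 other region-coded genes, 2 were tested. Pou4f1, a sensory neuron factor, was higher in TH-like wells, at 649 ± 80.2 RPM against 200 to 250 RPM in the other neuron classes (1.59, adjusted p 0.000647). Pou4f1 and Isl1 were lower in non-neuronal wells (-4.58 and -2.98).

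Other rows lie within the Hox clusters. Mira, a long noncoding RNA beside Hoxa7, was seen in 26.9% of wells at 43.1 ± 17.8 RPM, and in 2 control wells. Hoxa7 was seen in 71.7% of the wells with Mira and in 45.2% of the others. The part of read depth in this was not tested. Gm53 beside Hoxb9 was seen in 42 wells, and in 26 of them (61.9%) Hoxb9 was seen too, against 8.28% of the wells without Gm53. It was seen in 21.01% of NF-like wells and in at most 3.39% of wells of the other neuron classes. Mir196b beside Hoxa9 was seen in 21 wells, 1700109F18Rik beside Hoxd3 in 9, 2700086A05Rik beside Hoxa5 in 4 and Hoxa11as in 2. Mir10a, Mir10b, Mir196a-2 and Mir615 had no read in 694 wells, which allows a share of up to 0.432% each; the library protocol starts from poly(A) tails. Evx1 and Evx2, at the posterior ends of the a and d clusters, were seen in 4 wells and 1 well.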

How the data were processed

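Single cells of lumbar dorsal root ganglia were sequenced from transcript starts. Reads were aligned with Bowtie to mm9, per the submitters' processing notes; versions and counting rules are not given in the sources used here. The authors deposited RPM (reads per 1000000 reads) for 864 wells, with no molecular identifiers; 4 deposited columns that the values do not let be read as RPM were treated as a score. Rows of the same gene were summed. Whole reads were recovered from the RPM steps in 841 columns, with 99.51% of values within 0.1 of a whole number. Wells labelled single cell with 1000 or more genes were used, 694 of 799; reads per well ran from 2459 to 31963365. Exact 95% intervals, and limits of 3 counts for a 0, cover counting error only.

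Wells were clustered without Hox genes on 2 random, separate sets of the genes (Leiden, resolution 2, leidenalg 0.10.2) and named from marker lists. Hox genes were tested in wells whose 2 names agreed. Each other gene was tested in wells named by the clustering of the set that did not hold it, also where the 2 names disagreed. No doublet caller was run, and wells labelled with more than 1 cell were left out. Mean RPM per class and preparation, with 3 or more wells, was tested as log2(RPM + 5) with limma 3.58.1 in R 4.3.3, with preparation as a term and 13 residual degrees of freedom, at an adjusted p of 0.05. Fold changes on that scale understate low genes. Counts recovered from the authors' RPM were tested with edgeR 4.0.16, which called 375 genes for NF-like, 277 for NP-like, 86 for PEP-like, 194 for TH-like, 4124 for non-neuronal wells and 65 for cooling. The scripts were tested on simulated data. Values by preparation are given for Hox genes that averaged at least 5 RPM or were called in any comparison. Related genes are named when called, at most 6 a list. Values of some genes are not reported here. The members and lists were chosen with earlier results of these data known. Promoters are from RefSeq GRCm38.p6 and were not joined to mm9 coordinates.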

Additional observations from a re-analysis of the deposited data

Results flagged for a closer look

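For 39 groups of 4 or 5 preparations of the 15 Hox genes described by preparation, 9 had 1 preparation far from the others. The rule used flags about 1 in 20 groups only where values are independent and normally distributed. These groups overlap, are skewed and hold many zeros, so the count of 9 cannot be set against that rate. Over all wells, session C females stood apart at 83.9 RPM for Hoxa3 (others 0 to 2.47), 188.1 RPM for Hoxa5 (3.26 to 17.8) and 17.65 RPM for Hoxb2 (1.52 to 3.57). Session B males stood apart at 11.4 RPM for Hoxc8 (6.49 to 7.70). Within classes, session B males stood apart for Hoxb7 in NP-like wells at 7.88 RPM (0 to 0.4926), for Hoxb7 in PEP-like wells at 10.6 RPM (0 in the others) and for Hoxd1 in TH-like wells at 4.95 RPM (0 to 1.42). Session C males stood apart for Hoxb9 in PEP-like wells at 275 RPM (0 to 9.60) and in NP-like wells at 0.0442 RPM (0 in the others).

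Outside the comparisons, 25 of 33 wells labelled with more than 1 cell held a Hox gene, against 10 of 32 control wells. Mira, a row beside Hoxa7, was seen in 26.9% of single-cell wells and in 2 control wells.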

How the results depend on the processing

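By replicate number, no paired analysis was possible because the labels give no numbers that join wells of the groups compared. The cell classes share their preparations and were compared within them, with preparation as a term of the fit; without that term 4 Hox genes were called in NF-like and 6 in non-neuronal wells. For NF-like wells 4 Hox genes were called, and 2 by edgeR, Hoxb9 and Hoxd1; leaving out 1 preparation gave 3 to 4, and a minimum mean of 1 RPM gave 6. For NP-like wells the count went from 0 to 1 with a pseudocount of 1 and to 2 with 5 or more wells per class and preparation. For PEP-like wells it went from 0 to 1 with 5 or more wells, and from 0 to 1 over the leave-outs. For non-neuronal wells it went from 4 to 7 with a pseudocount of 1, to 2 with wells thinned to 5000 reads, and to 7 without the highest well of each Hox gene, an alternative chosen after seeing the data; the leave-outs gave 3 to 7, with 7 when session C females were left out. The causes were not tested. TH-like wells and cooling stayed at 0 in every alternative run. The mean number of Hox genes per well was 3.36, and 1.02 in wells thinned to 5000 reads. Of 14 alternatives for each called gene none reversed the sign; the call was kept in 14 for Hoxa7 and Hoxb5 in non-neuronal wells, and in NF-like wells in 13 for Hoxd1, 12 for Hoxb7, 11 for Hoxb9 and 9 for Hoxb5. Hoxb7 and Hoxc9 in non-neuronal wells kept it in 9.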
